A study of Mus musculus with 6 samples.

Results

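The genes described here are 10 mouse genes of the actin cytoskeleton, namely the transgelins Tagln and Tagln2, the calponins Cnn1, Cnn2 and Cnn3, the actins Acta2 and Actg2, the myosin regulatory light chain Myl9, and the tropomyosins Tpm1 and Tpm2. They are 10 of the 18193 genes that the array annotation names with a probe set of their own. A probe set is a group of short probes that read one transcript, and every probe set annotated with exactly one of these genes was used, 25 in all. The genes were selected with the intensities of these 6 arrays already known, from the contrast described here. Their differences between the lines are therefore given as a description, without a p-value. The arrays carried total RNA of undifferentiated mouse embryonic stem (ES) cells, 3 from the Dicer +/- line D4 and 3 from the Dicer -/- line 27H, called heterozygous and null cells below. Dicer is the ribonuclease that cuts microRNA precursors, and the control line also carries 1 disrupted copy of it. Which part of Dicer is missing is not given in the labels. Each genotype is represented by a single cell line, and effects of genotype cannot be told apart from other differences between the lines. Nor do the labels give the origin of the 3 replicate arrays, so the spread behind any p-value is that of these arrays and may be technical. The ES cell factors Pou5f1 and Nanog read 13643 ± 381 and 5813 ± 68.9 (SD, n = 3) in heterozygous cells and 12509 ± 612 and 6146 ± 36.7 in null cells, so the defining markers of the labelled cell type were present in both.

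Transgelins and calponins share a calponin homology domain and bind actin filaments. Tropomyosins run along the filament and control access of myosin to it, and Myl9 is the light chain whose phosphorylation switches on smooth muscle and non-muscle myosin II. Many of these genes are classical targets of serum response factor (SRF), which binds the CArG box. SRF works with the myocardin-related factors Mrtfa and Mrtfb, which enter the nucleus when monomeric actin is scarce, or with the ternary complex factors (Elk1, Elk3, Elk4) downstream of ERK. The Hippo effectors YAP and TAZ act through TEAD factors on an overlapping group of cytoskeletal genes. Acta2, Tagln and Cnn1 are best known as markers of smooth muscle and of contractile fibroblasts.

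Most of these genes read lower in null cells. Transgelin and calponin 1 showed the widest gaps, at 3.96-fold for Tagln and 5.14-fold for Cnn1. Tpm2, Acta2, Myl9 and Cnn2 were lower by 1.72-fold to 2.17-fold, Tpm1 was slightly lower, Cnn3 overlapped between the lines, and Tagln2 was 1.97-fold higher. Among the 9 members tested, 7 were lower and 1 was higher with no overlap between heterozygous and null arrays. Over all 12927 tested genes, 28.9% were lower and 28.3% higher without overlap. In a bulk RNA sample, fewer cells of a type and less RNA per cell cannot be told apart.

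Promoter windows from RefSeq on assembly GRCm38.p6 were matched for 8 members, and those of Tagln and Actg2 were not analysed here. In the 250 bases before the transcription start, the CArG box was found for Cnn2 and Myl9, against 1.47% of all 32851 windows of that length. A form with 1 inner letter other than A or T was found at 2 places in Acta2 and at 1 in Myl9, against 7.24% of windows. The TEAD motif CATTCC, read on both strands, was found for Tagln2 at 2 places and for Acta2 and Tpm1 at 1 each, against 12.6% of windows. The windows of Cnn1, Cnn3 and Tpm2 held none of these letters. The 5 windows with a match are shown because these members span the range of differences from Acta2 to Tagln2. They run 5′ to 3′ on the gene's strand, with the matched letters in capitals.
Cnn2, chr10:79988350-79988599, plus strand: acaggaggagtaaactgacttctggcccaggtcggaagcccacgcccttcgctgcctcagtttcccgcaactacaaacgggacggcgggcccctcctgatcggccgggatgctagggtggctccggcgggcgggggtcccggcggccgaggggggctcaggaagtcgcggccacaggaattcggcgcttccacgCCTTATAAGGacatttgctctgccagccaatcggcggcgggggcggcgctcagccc
Myl9, chr2:156775214-156775463, plus strand: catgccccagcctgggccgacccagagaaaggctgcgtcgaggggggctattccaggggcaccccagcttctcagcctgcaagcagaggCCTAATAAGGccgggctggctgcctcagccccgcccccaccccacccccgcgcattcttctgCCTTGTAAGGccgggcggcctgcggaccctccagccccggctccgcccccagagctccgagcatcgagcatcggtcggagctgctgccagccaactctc
Acta2, chr19:34255374-34255623, minus strand: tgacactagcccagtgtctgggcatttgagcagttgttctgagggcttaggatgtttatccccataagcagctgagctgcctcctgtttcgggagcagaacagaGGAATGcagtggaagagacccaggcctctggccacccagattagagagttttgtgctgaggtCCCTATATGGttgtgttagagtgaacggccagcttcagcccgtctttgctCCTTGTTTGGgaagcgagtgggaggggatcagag
Tpm1, chr9:67049214-67049463, minus strand: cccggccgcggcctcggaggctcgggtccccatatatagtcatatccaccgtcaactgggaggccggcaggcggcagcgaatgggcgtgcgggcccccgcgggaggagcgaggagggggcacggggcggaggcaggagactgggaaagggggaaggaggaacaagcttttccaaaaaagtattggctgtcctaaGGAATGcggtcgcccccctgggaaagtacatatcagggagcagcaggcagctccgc
Tagln2, chr1:172499996-172500245, plus strand: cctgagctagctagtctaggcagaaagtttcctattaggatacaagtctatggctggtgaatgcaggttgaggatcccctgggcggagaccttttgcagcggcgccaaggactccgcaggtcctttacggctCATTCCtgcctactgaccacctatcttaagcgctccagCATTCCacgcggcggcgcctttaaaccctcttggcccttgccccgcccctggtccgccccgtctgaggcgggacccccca
In Cnn2 the CArG box began 56 bases before the start, in Myl9 161 bases before it, and the 2 looser matches of Acta2 began 84 and 34 bases before it. The CATTCC matches of Tagln2 began 118 and 80 bases before the start, and the matches of Acta2 and Tpm1, both on the opposite strand (GGAATG), began 146 and 56 bases before it. A match is a run of letters and does not show that a factor binds there.

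Intensities are in arbitrary units on a linear scale, and they cannot be compared between probe sets. A probe set passed the filter when 3 or more of the 6 arrays reached 32 intensity units, and the brightest passing probe set stood for its gene. A gene was called at a limma adjusted p under 0.05 together with a log2 difference of at least 1, which is 2-fold. All log2 differences are null minus heterozygous, with the moderated standard error (SE) of limma. Of the 25 member probe sets, 20 passed the filter and 5 did not. Of the 9 members tested, 0 were called higher and 4 lower, where 7.23% and 6.2% of all tested genes were called higher and lower. Since the members were selected on this contrast, nothing is read from that count. With each array centred on its median, the members' split was 1 higher and 2 lower, and that of all genes was 1263 and 575 in place of 934 and 802. The median log2 difference of the 9 tested members was -0.89, beside -0.01 for all tested genes. Centring moved the latter to 0.14 and raises every member's difference by the same amount.

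**Figure D1:**
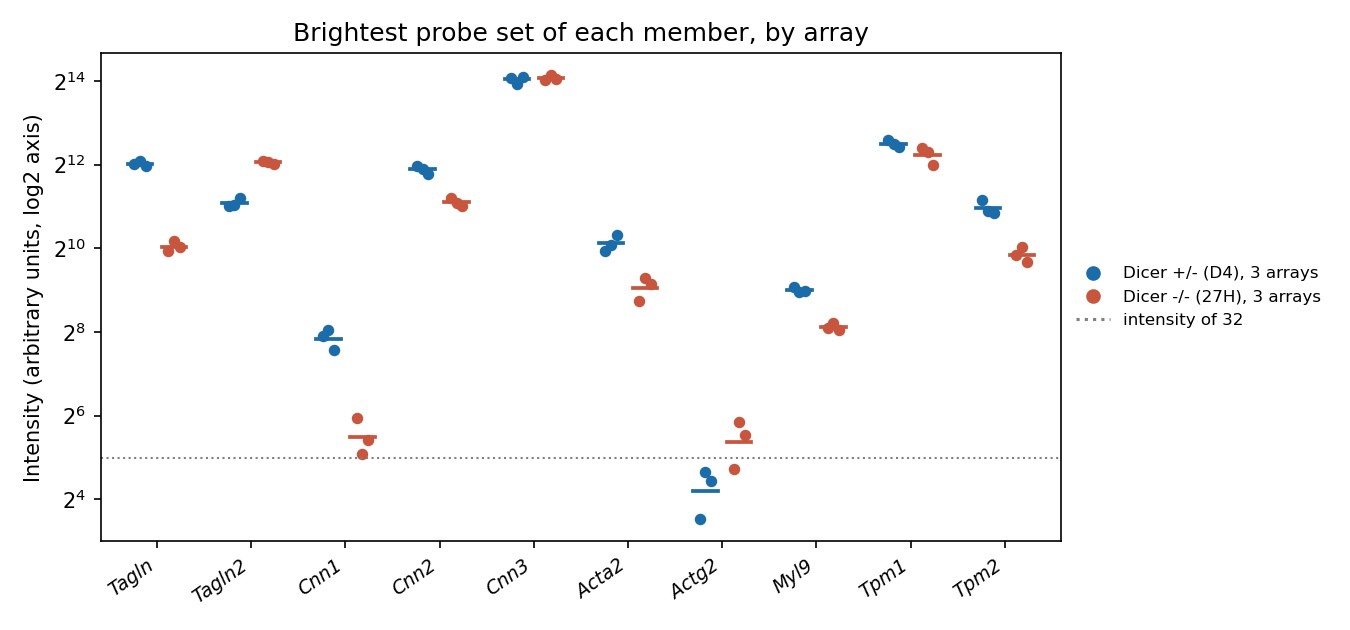
Intensity of the brightest probe set of each member on a log2 axis, with a point for each array, blue for the 3 heterozygous and red for the 3 null arrays, and a line at each group's mean of log2 values; the dotted line marks an intensity of 32. Tagln and Cnn1 show the widest gaps, Tagln2 lies higher in null cells, Cnn3 overlaps, and Actg2 lies near or under 32.

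Tagln encodes transgelin (SM22-alpha), an actin-bundling protein and an early smooth muscle marker. Its single probe set, 1423505_at, read 4113, 4380 and 4019 in heterozygous arrays 1, 2 and 3, and 974, 1147 and 1040 in the null arrays. All 3 null arrays lay far under the lowest heterozygous array, and the spread within each line was small beside the gap. The means were 4170.3 ± 187 and 1054 ± 87.4 (SD, n = 3), with a log2 difference of -1.99 ± 0.08 (SE), or 3.96-fold lower. Leaving out any 1 array kept the log2 difference of Tagln between -2.05 and -1.93.

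Tagln2, the broadly expressed paralogue of Tagln, went the other way. Its probe set 1426529_a_at read 2058, 2110 and 2360 in heterozygous arrays (2176 ± 162, SD, n = 3) and 4351, 4313 and 4167 in null arrays (4277 ± 97.4). Every null array of Tagln2 lay above every heterozygous array. The log2 difference was 0.98 ± 0.07 (SE), or 1.97-fold higher, just short of the 2-fold limit. Tagln2 passed that limit without heterozygous replicate 3 (1.04), with arrays centred (1.13), with array weights (1.001) and as a mean over its probe sets (1.004). A second probe set, 1439407_x_at, read 609, 493 and 617 in heterozygous arrays and 880, 1004 and 1788 in null arrays, a log2 difference of 1.03 ± 0.20 (SE). The groups did not overlap there either, though null replicate 3 stood apart from the other null arrays. The third, 1420245_x_at, read at most 26.2 on every array and was not tested. Tagln2 lies on chromosome 1, where the median log2 difference of 726 tested genes was 0.31. The chromosomes of the other members had medians between -0.07 and -0.01. Chromosome 11, which carries no member, had a median of 0.29 over 1097 tested genes. List genes on chromosome 11 went both ways, among them Myh10 (0.99) and Sptbn1 (0.79), Igfbp3 (-1.71) and Pfn1 (-0.45). The part of the chromosome in the differences of Tagln2 and Myh10 was not tested.

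Among the calponins, which bind actin and restrain the ATPase of myosin, the 3 paralogues differed from each other. Cnn1, the smooth muscle form, read 241, 266 and 189 in heterozygous arrays and 61.4, 33.9 and 42.9 in null arrays with its probe set 1417917_at. The groups did not overlap, and the null arrays lay close to 32, the limit of the filter. The means of Cnn1 were 232 ± 38.9 and 46.1 ± 14.0 (SD, n = 3), a log2 difference of -2.36 ± 0.29 (SE), or 5.14-fold lower. On a log2(value + 32) scale, which shrinks differences of dim genes, the Cnn1 difference was -1.76.

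Cnn2, a calponin of many cell types, read 4002, 3824 and 3533 in heterozygous arrays and 2340.1, 2183 and 2064 in null arrays. The groups were clearly apart, at 3786 ± 236 and 2196 ± 138 (SD, n = 3). The log2 difference of Cnn2 was -0.79 ± 0.08 (SE), 1.72-fold lower and under the 2-fold limit. Its promoter is one of the pair with an exact CArG box above.

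Cnn3, the acidic calponin, has 6 probe sets, all of which passed the filter. The brightest, 1436836_x_at, read 17308, 15501 and 17624 in heterozygous arrays and 16655, 18021 and 16909.9 in null arrays, so the groups overlapped. Its log2 difference was 0.03 ± 0.07 (SE). The probe set 1426724_at, which has no mark of shared sequence in its name, also overlapped, at 7954 ± 341 and 7912 ± 832 (SD, n = 3) with a log2 difference of -0.01. The other 4 were between 0.15 and 0.41, and only 1455570_x_at, at 5617 ± 853 and 7439.8 ± 750 (SD, n = 3), had no overlap between the lines. Leaving out 1 array turned the sign of the brightest probe set's difference in some cases, over a range of -0.02 to 0.07. Names ending in _a_at mark probes shared by several transcripts of 1 gene, and names ending in _s_at or _x_at mark probes that can also bind transcripts of other genes.

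**Figure D2:**
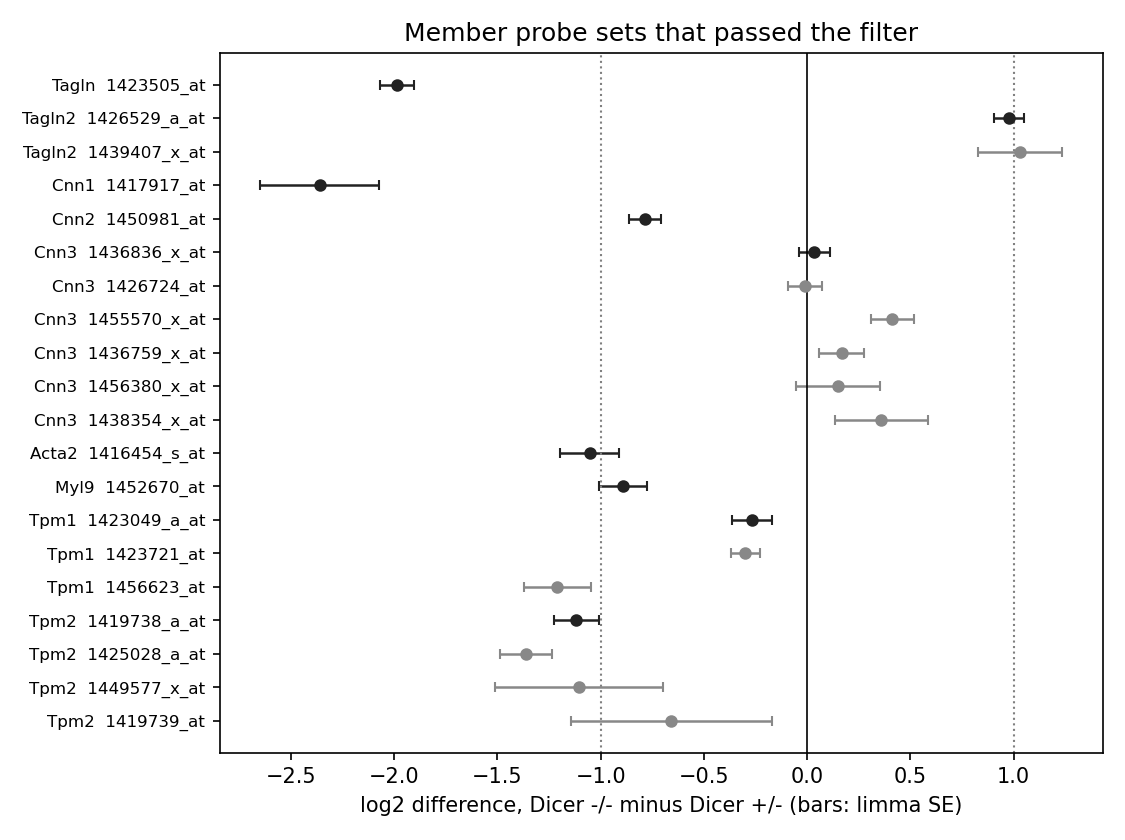
The log2 difference, null minus heterozygous, of the 20 member probe sets that passed the filter, with bars for the limma SE; black points are the brightest probe set of a gene, grey points its others, and dotted lines mark a 2-fold difference. Both measured Tagln2 probe sets lie near 1, all of Tpm2 lie under 0, and 1 of the Tpm1 probe sets lies at -1.21, apart from the other 2 near -0.3.

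The smooth muscle actins were read less well. Acta2, alpha smooth muscle actin, is read by 1416454_s_at, whose probes are shared between related transcripts. It read 984, 1090.0 and 1274 in heterozygous arrays and 427, 631 and 567 in null arrays, with no overlap. The means for Acta2 were 1116 ± 147 and 542 ± 104 (SD, n = 3), a log2 difference of -1.05 ± 0.14 (SE), or 2.08-fold lower. Acta2 missed the 2-fold limit without null replicate 1 (-0.89), without heterozygous replicate 3 (-0.95) and with arrays centred (-0.90). Its other probe sets, 1456658_at and 1444105_at, passed 32 in 1 array between them, at 39.5 in null replicate 2, and were not tested.

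Actg2, gamma smooth muscle (enteric) actin, was near the limit of measurement. Its probe set 1422340_a_at read 11.5, 25.0 and 21.6 in heterozygous arrays and 26.6, 58.1 and 46.3 in null arrays. The null arrays were above all heterozygous ones, but only 2 of the 6 arrays passed 32, so Actg2 was not tested. With values under 32 raised to 32, the null arrays were 1.38-fold higher.

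The other actins of the arrays, named here after their values were seen, did not all go one way. The cytoskeletal actins Actb and Actg1 had log2 differences of -0.16 and 0.15 (limma adjusted p 0.112 and 0.117). The striated muscle actins Acta1 and Actc1, close relatives of Acta2, were called lower at -1.16 and -1.03 (adjusted p 7.17e-05 and 0.00184). Acta1 read 465 ± 86.7 and 206 ± 13.2 and Actc1 183 ± 15.6 and 90.6 ± 18.97 (SD, n = 3). Whether probes of one actin bind transcripts of another was not tested.

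Myl9 read 541, 494 and 508 in heterozygous arrays and 274, 296 and 263 in null arrays. The 2 lines were well apart, at 514 ± 24.2 and 278 ± 16.6 (SD, n = 3). The log2 difference of Myl9 was -0.89 ± 0.12 (SE), 1.85-fold lower. Over the alternative settings the difference of Myl9 lay between -0.94 and -0.73. Other myosin genes on the lists, named here after their values were seen, went both ways. Myh9 was at -0.37, Myl12a at -0.08, Myl12b at 0.58 and Myl6 at -1.01 (limma adjusted p 0.0259, 0.452, 0.000137 and 0.00204). The heavy chain Myh10 of non-muscle myosin IIB read 3168 ± 168 and 6289 ± 363 (SD, n = 3). Its log2 difference was 0.99 (limma adjusted p 7.23e-07), short of the 2-fold limit, and it was called without heterozygous replicate 3 (1.03), without null replicate 1 (1.04), with arrays centred (1.14) and with array weights (1.002).

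The tropomyosins differed by gene and, within Tpm1, by probe set. Tpm2 (beta-tropomyosin) is read by 4 probe sets, and its brightest, 1419738_a_at, read 2281, 1902 and 1849.8 in heterozygous arrays and 919, 1046 and 817 in null arrays. All null arrays of Tpm2 were well under the heterozygous ones, at 927 ± 114 against 2011 ± 235 (SD, n = 3). The log2 difference was -1.12 ± 0.11 (SE), or 2.17-fold lower. The probe set 1425028_a_at, at 837 ± 34.9 and 328 ± 51.8 (SD, n = 3), was 2.57-fold lower. The dim probe sets 1449577_x_at and 1419739_at were at -1.11 ± 0.41 and -0.66 ± 0.49 (SE), and the lines did not overlap in any of the 4. Tpm2 was under the 2-fold limit with arrays centred (-0.96). It was also under it with all _a_at, _s_at and _x_at probe sets left out (-0.66), a setting that removes both bright Tpm2 probe sets and leaves only the dim 1419739_at.

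Tpm1 (alpha-tropomyosin) makes many isoforms by alternative promoters and splicing, and 3 of its 4 probe sets passed the filter. The brightest, 1423049_a_at, read 6160.2, 5730.1 and 5453 in heterozygous arrays and 5368, 5037 and 4076 in null arrays. The lines only just failed to overlap, and the log2 difference was -0.27 ± 0.10 (SE). Its neighbour in brightness, 1423721_at, was close to it at -0.30 ± 0.07 (SE). The dimmer 1456623_at read 448, 323 and 379.6 in heterozygous arrays and 182, 158 and 155 in null arrays, which is well apart. Its means of 384 ± 62.2 and 165 ± 15.2 (SD, n = 3) gave a log2 difference of -1.21 ± 0.16 (SE), or 2.31-fold lower. The files do not say which Tpm1 transcripts each probe set reads, and the difference between the probe sets was not tested. As a mean over probe sets, Tpm1 was at -0.59.

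Other genes of the SRF and YAP pathways, and other actin-binding genes, were followed in 6 lists drawn up with results of these data known. Their tests come from the fit over all 12927 genes. At the limma adjusted p alone, 24.5% of all tested genes were higher and 24.3% lower. Across the 6 lists, 9 of 113 tested genes were called higher and 10 lower. These shares lie near the 7.23% and 6.2% of all tested genes called in the main setting. With arrays centred, 13 and 7 list genes were called, where 1263 and 575 of all 12927 tested genes were.

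**Figure D3:**
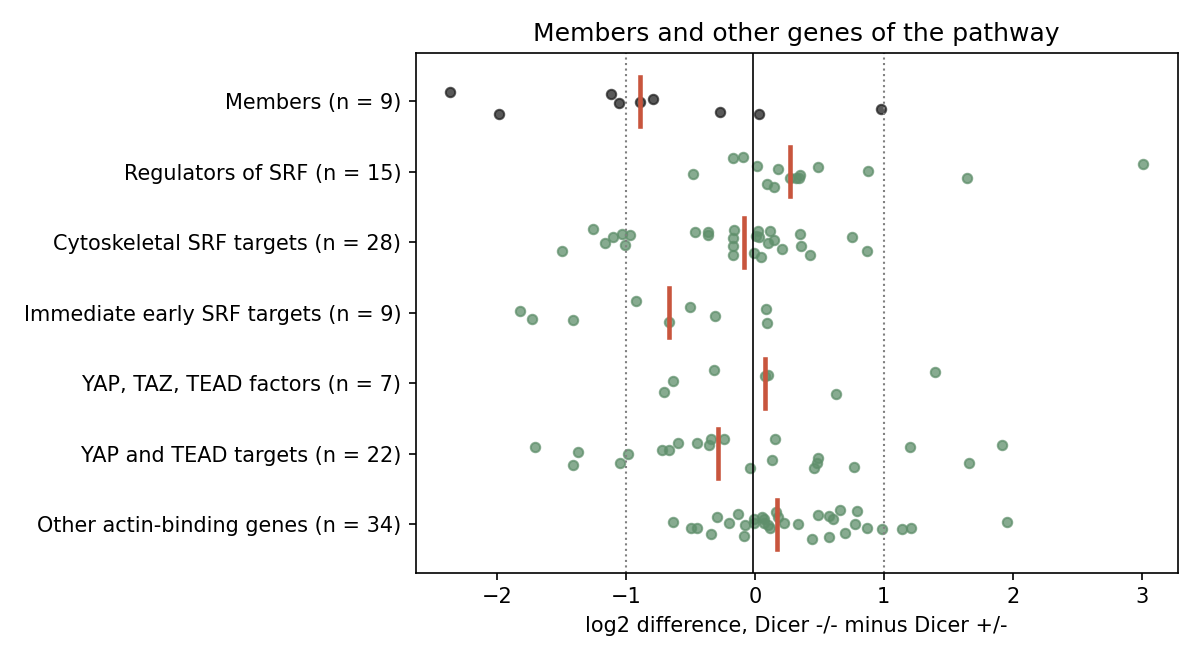
The log2 difference, null minus heterozygous, of the tested members and of the tested genes in 6 lists. The lists hold genes of the SRF and YAP pathways and other actin-binding genes. Each point is a gene's brightest probe set, and a red bar marks each median. The black line is the median of all tested genes and dotted lines mark 2-fold. The members and the immediate early targets have the lowest medians, at -0.89 and -0.67, and the members' values are a description.

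The regulators of SRF that passed the test were all higher in null cells. Of 15 tested, 2 were called higher and 0 lower, the adjusted p alone gave 8 and 0, and the median log2 difference was 0.27. Srf itself read 544 ± 45.9 and 579 ± 17.6 (SD, n = 3), with overlapping arrays and a limma adjusted p of 0.474. That value is from 1418255_s_at, and the other probe set of Srf, 1418256_at, was at -0.35. Its coactivator Mrtfa read 439 ± 17.9 and 563 ± 65.2, 0.35 ± 0.11 higher on the log2 scale (SE; adjusted p 0.0208). Mrtfb read 768 ± 10.04 and 1413 ± 40.6, 0.88 ± 0.08 higher (SE; adjusted p 3.3e-06), and it passed the 2-fold limit with arrays centred (1.03) and as a mean over its probe sets (1.14). Myocd (myocardin), the coactivator of smooth and cardiac muscle, stayed at or under 20.1 on every array and was not tested.

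Elk4, a ternary complex factor, rose from 214 ± 64.7 to 1681 ± 70.2 (SD, n = 3), which is 8.06-fold (log2 difference 3.01, limma adjusted p 1.45e-07). Its other passing probe set, 1447571_at, was at 0.75, and with it alone Elk4 was not called (adjusted p 0.0973). Elk4 lies on chromosome 1, like Tagln2 and like Fhl2, which was called lower (-1.10). Rhob, a small GTPase of endosomes and actin control, rose from 1649, 1489 and 1338 to 4601, 4652 and 4716, or 3.13-fold (log2 difference 1.65, adjusted p 6.15e-08). The lines were far apart for both Elk4 and Rhob.

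Cytoskeletal SRF targets outside the members had a median of -0.09, near the -0.01 of all tested genes. With arrays centred these medians were 0.07 and 0.14, since centring raises every gene by the same amount. Of 28 tested, 0 were called higher and 6 lower, and the limma adjusted p alone gave 4 and 10. Zyx, the focal adhesion protein zyxin, dropped 2.82-fold, from 978 ± 41.3 to 347 ± 19.2 (SD, n = 3; adjusted p 3.44e-07). As a mean with its dim second probe set, Zyx missed the adjusted p (0.0542) at an unmoved difference of -1.49. Tgfb1i1 (Hic-5), a paxillin-like adhesion protein, dropped 2.38-fold, from 235 ± 66.2 to 96.4 ± 13.6 (adjusted p 0.00103). The remaining calls beside Acta1 and Actc1 were the LIM protein Fhl2 (-1.10) and the essential light chain Myl6 (-1.01). With arrays centred, 1 was called higher and 3 lower, and on the log2(value + 32) scale 3 were lower. Myl6 was not called without heterozygous replicate 2 or 3 or null replicate 2 or 3, and Actc1 was not called without heterozygous replicate 3 or null replicate 1 or 3. Fhl2 lost its call with arrays centred (-0.95) and on the log2(value + 32) scale (-0.86). Actc1 and Myl6 lost theirs in both of these settings, under quantile normalization (-0.98 and -0.99) and with array weights (-0.93 and -0.98). Des was called higher without heterozygous replicate 2 (1.17).

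Immediate early genes, which SRF controls together with ternary complex factors within minutes of a stimulus, were called in one direction or not at all. Of 9 tested, 0 were called higher and 3 lower, the limma adjusted p alone gave 0 and 7, and the median was -0.67. The other two tested, Nr4a1 and Srf, were both at 0.09 and did not pass. Egr1, a zinc finger factor, fell 3.32-fold, from 3414, 3176 and 2925 to 919, 941 and 1002 (log2 difference -1.73 ± 0.08, SE; adjusted p 4.11e-08). Junb, a subunit of AP-1, fell from 389 ± 23.6 to 112 ± 22.5 (SD, n = 3), or 3.53-fold, and Ier3 fell from 666 ± 5.70 to 251 ± 2.82, or 2.65-fold. Their adjusted p values were 7.75e-06 and 7.99e-07. Fosb, Egr2, Egr3 and Egr4 were too dim to be tested. Without heterozygous replicate 3, Ier2 was called lower as well (-1.03).

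**Figure D4:**
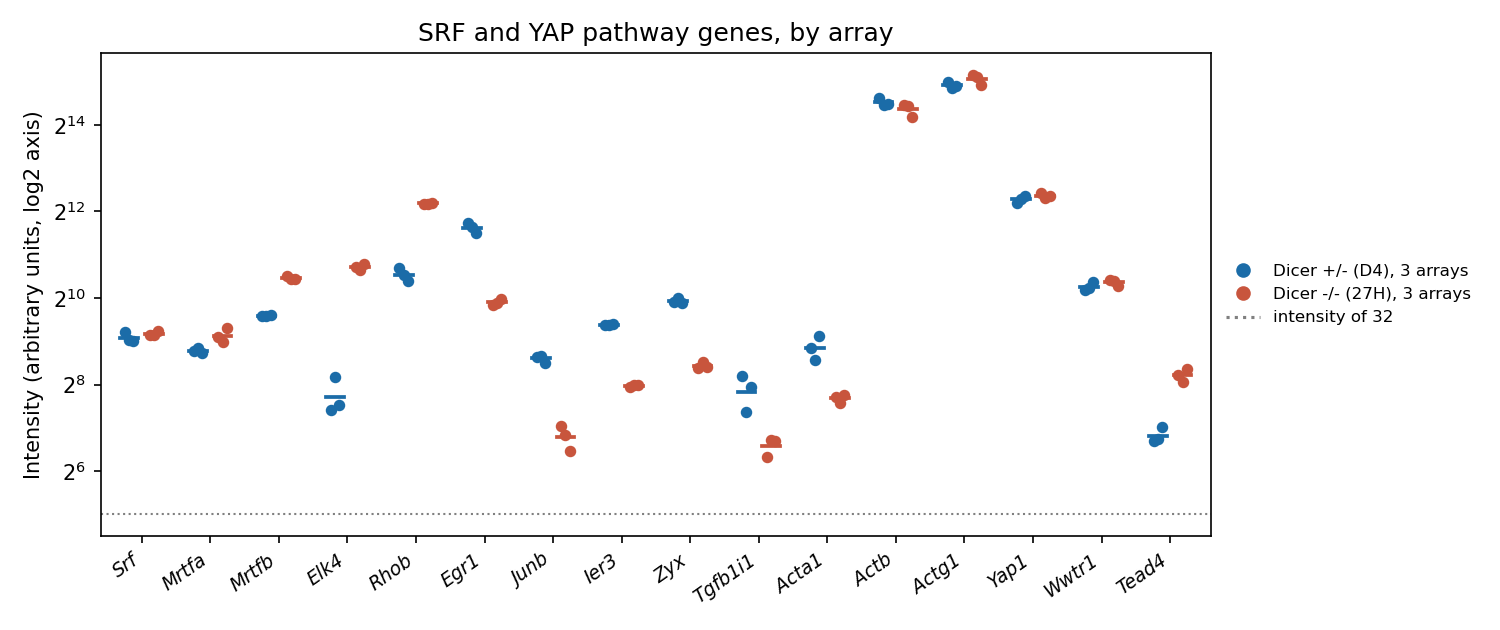
Intensity on a log2 axis of 16 genes of the SRF and YAP pathways, with a point for each array, blue for heterozygous and red for null, a line at each group's mean of log2 values, and a dotted line at 32. Srf, Yap1 and Wwtr1 overlap between the lines, Mrtfb, Elk4, Rhob and Tead4 lie higher in null cells, and Egr1, Junb, Ier3, Zyx, Tgfb1i1 and Acta1 lie lower.

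The YAP branch showed calls in both directions. Of 7 factors tested, 1 was called higher and 0 lower, the limma adjusted p alone gave 1 and 3, and the median was 0.08. Yap1 read 4971 ± 278 and 5251 ± 211 (SD, n = 3) and Wwtr1, which encodes TAZ, 1229 ± 87.0 and 1316 ± 58.9, with adjusted p values of 0.351 and 0.346. Their dimmer passing probe sets were at -0.12 for Yap1 and at -0.32 and -0.30 for Wwtr1. Tead4, a TEAD factor known from trophectoderm, rose 2.63-fold, from 113 ± 13.4 to 298 ± 30.7 (adjusted p 3.7e-05). Its other probe set was at 0.29, and Tead4 was not called with it alone (adjusted p 0.423). As a mean of both, Tead4 had a log2 difference of 0.84, under the 2-fold limit (adjusted p 0.00387). Tead1 and Tead3 were at -0.63 and -0.71 (adjusted p 9.8e-05 and 0.0156), under the 2-fold limit.

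Of 22 YAP and TEAD targets tested, 3 were called higher and 1 lower, the limma adjusted p alone gave 6 in each direction, and the median was -0.29. The Hippo kinase Lats2, itself a YAP target, rose 3.77-fold, from 125 ± 10.04 to 471 ± 15.7 (SD, n = 3; adjusted p 6.82e-07). Dock5, an activator of Rac, rose 3.17-fold (adjusted p 1.72e-07). Myof, the membrane repair protein myoferlin, rose from 654 ± 36.6 to 1513 ± 140 (adjusted p 1.33e-06). Igfbp3, a secreted carrier of insulin-like growth factors, fell 3.26-fold, from 1341 ± 30.6 to 413 ± 49.4 (adjusted p 2.4e-07). The matrix protein genes most used as YAP readouts were named after their values were seen. Ccn2 (CTGF) was at 0.16 (adjusted p 0.0696) and Ccn1 (CYR61) at -0.67 (adjusted p 0.000769). Ccn1 was called lower with _a_at, _s_at and _x_at probe sets left out (-1.24), and Crim1 with eBayes without an intensity trend (-1.05). Nt5e was called lower without heterozygous replicate 2 (-1.01) or null replicate 3 (-1.01), and Rbms3 without null replicate 2 (-2.16). Crim1 and Rbms3 were dim, with means of 58.0 and 52.9 in heterozygous and 27.6 and 30.5 in null cells. Crim1 reached 32 in heterozygous arrays only. With all arrays kept and values under 32 raised to 32, Crim1 was at -0.81 and Rbms3 at -0.42.

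Actin-binding genes outside the SRF lists were read beside all tested genes, of which 7.23% were called higher and 6.2% lower. Of 34 tested, 3 were called higher and 0 lower, and the median was 0.17. The limma adjusted p alone gave 16 higher and 4 lower, beside 24.5% and 24.3% of all tested genes. Pfn2, a profilin that feeds actin monomers to filament ends, rose 3.87-fold, from 989 ± 80.7 to 3821 ± 180 (SD, n = 3; adjusted p 1.87e-08). Palld, the crosslinker palladin, rose from 1079.8 ± 76.9 to 2492 ± 57.1, or 2.31-fold, with an adjusted p of 3.56e-07. Lcp1 (L-plastin), an actin bundler, rose from 65.0 ± 17.8 to 140 ± 9.69 with an adjusted p of 0.00463, and was not called without heterozygous replicate 3 (0.89) or on the log2(value + 32) scale (0.84). With arrays centred, 5 were called higher.

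Markers of cells that carry contractile genes were read beside the members. Of 19 fibroblast (feeder) markers on the arrays, 15 were tested, and 1 was called higher and 2 lower. The limma adjusted p alone gave 2 higher and 4 lower, and the median log2 difference was -0.38. Postn and Fap were under 32 on all arrays. The fibrillar collagen Col1a1 read 90.9, 38.3 and 80.9 in heterozygous arrays and 7.43, 4.44 and 7.99 in null arrays (limma adjusted p 0.00522), which is 2.05-fold lower with values under 32 raised to 32. S100a4, a calcium-binding protein, read 55.9 ± 9.44 and 15.0 ± 8.08 (SD, n = 3, adjusted p 0.0264), and was not called with that floor. Col1a1 and S100a4 passed the filter only through the heterozygous arrays, where they read higher, so nothing is read from their calls. The proteoglycan Dcn rose from 31.0 ± 23.8 to 263 ± 56.6 (adjusted p 9.3e-05), which is 6.61-fold with the floor. Lox was called lower with array weights (-1.50) and as a mean over probe sets (-2.00), and Col5a2 was called higher as such a mean (1.42). The summed intensity of the list without Fn1, which makes up most of the sum, was 1238 to 1279 in heterozygous and 1287 to 1469.9 in null arrays. With Fn1 it was 7895 to 8451 and 8705 to 9032. The order of the sums without Fn1 rests on Dcn, and with Dcn left out as well the null sums would be the lower ones. Of 10 smooth muscle markers, 5 were tested, with 0 called, and the adjusted p alone gave 1 higher (Npnt, 0.80) and 1 lower (Smtn, -0.46). Npnt passed the 2-fold limit as a mean over its probe sets (1.06). Aoc3 read 34.3, 31.97 and 37.3 in heterozygous arrays and 6.16, 1.48 and 2.75 in null arrays. It failed the filter and was called lower without one (-3.56), but was 1.08-fold lower with values under 32 raised to 32. The sums of the smooth muscle markers were 712 to 953 and 805 to 954, and Myocd, Lmod1 and Kcnmb1 were under 32 on every array.

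Of 7 primitive endoderm markers tested, 2 were called lower, where 6.2% of all tested genes were. These were Dab2 (-2.13, limma adjusted p 9.27e-07) and Gata6 (-1.63, adjusted p 0.00824). The median was -1.36, the value of Foxa2, whose arrays overlapped (adjusted p 0.144). With values under 32 raised to 32, Foxa2 was at -0.68 and Gata6 at -1.41. The summed intensity of the primitive endoderm list was 937 to 1433 in heterozygous and 423 to 443 in null arrays. Dab2, from 683 to 155, made up most of that fall. Of 10 ES cell markers, 0 were called by limma, while the adjusted p alone gave 2 higher and 3 lower, Fgf4 (0.52) and Klf4 (-0.30) among them. Their sums were 78614 to 80515 and 75288 to 76688. The part of any other cell type in the members' differences was not tested.

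The genes of most like pattern were sought for the member with the highest difference and the one with the lowest, by the root mean square distance over the 6 arrays between log2 values centred on each gene's mean. For Tagln2 these were Slc46a1, a folate transporter, at 0.034, Pgrmc1, a haem-binding membrane protein, at 0.036, and Capns1, the small calpain subunit, at 0.045. For Cnn1 they were the transcriptional repressor Bcl6b at 0.157, the chromatin remodeller Smarca1 at 0.189 and the non-coding RNA Dancr at 0.202.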

How the data were processed

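The authors deposited 1 table of intensities for 3 heterozygous and 3 null arrays. The values are linear, with a trimmed mean of 500 on each array. The submitters' processing notes name GCRMA, which gives log2 values, so its part in this table is unknown. Array medians were 44.9 to 52.7, and 56.9% to 60.3% of 45101 probe sets reached 32. The number of arrays sets the precision. Pearson's r across genes was 0.967 to 0.973 within lines and 0.924 to 0.928 between them, genes not being independent replicates.

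Values were turned into log2, 64 control probe sets were left out, and a log2 of 5 in at least 3 arrays was required. The probe set with the highest mean stood for a gene. The array annotation gave 1 symbol for 34945 probe sets, several for 932 and none for 9160. limma 3.58.1 in R 4.3.3 (eBayes with an intensity trend) compared the groups, two-sided, with Benjamini-Hochberg adjustment over 12927 genes, and was tested on simulated data. SEs of member probe sets come from the same fit over all non-control probe sets.

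The members and lists were chosen with earlier results of these data known. Of 168 list symbols, 165 were matched. The text names all members, Srf, Mrtfa, Mrtfb, Myocd, Yap1 and Wwtr1, and per list up to 3 called genes in each direction whose arrays do not overlap (where under 2 were called, up to 2 by size at the adjusted p). Other genes were named after their values were seen. Alternatives covered the filter, variance prior, replicate block, normalization, floor, probe set summary, array weights, size limit and each array left out.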

Additional observations from a re-analysis of the deposited data

How the results depend on the processing

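Counts of called genes moved with the limit on size. At the adjusted p alone, 3162 genes were higher and 3143 lower, and 1 member was higher and 7 lower. Of the 6 lists of SRF, YAP and other actin-binding genes, 35 genes were higher and 29 lower. The count of lower genes was 525 with a log2 filter of 7 and 534 on the log2(value + 32) scale, in place of 802. Called members were 1 higher and 2 lower with arrays centred, 1 higher with array weights or as a mean over probe sets, and 2 lower without probe sets that share sequence (_a_at, _s_at and _x_at, so including those shared only by transcripts of 1 gene). That last setting tested only 7 members, because Acta2 and Tagln2 had no passing probe set left in it. Leaving out 1 array gave 0 to 1 members higher (1 without heterozygous replicate 3) and 3 to 4 lower, 848 to 956 genes higher and 629 to 845 lower, and 9 to 10 list genes in each direction. Every tested member but Cnn3 kept its sign in all alternatives that gave it a value. Cnn3 kept it in 15 of 18, with values from -0.02 to 0.19. The replicate number did not pair the arrays (correlations of same-numbered deviations 0.033, 0.028 and 0.076). With the replicate block, 937 genes were higher and 809 lower, and 0 members higher and 4 lower. Without detection calls, differences of probe sets near 32 (Cnn1 in null cells, Actg2) are the least certain.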
